A study of Mus musculus with 16 samples.

Results

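RNA levels of 41 listed germline and meiosis genes were examined in mouse embryonic stem (ES) cells with and without Cfp1, before and after a DNA-damaging drug. The members were listed by name, from genes known for their part in meiosis, in the piRNA pathway or in germ cell fate. The rule itself uses no measured value, but the list was drawn up with earlier results of these data known. Of the 41 genes, 40 had a row in the count table of 22375 genes, and Tdrd5 was not analysed here. Strand-specific RNA-Seq of ribosomal RNA-depleted total RNA had been carried out on 4 groups with 2 biological replicates each: untreated wild-type (WT) cells, WT cells given doxorubicin, untreated Cfp1-/- cells and Cfp1-/- cells given doxorubicin. WT cells were the ES line E14Tg2a, both lines are labelled with the strain 129/OLA, and all cells grew on gelatin in serum with the cytokine LIF. Doxorubicin, which traps topoisomerase on DNA and breaks it, was given at 1 μM for 6 hours according to the treatment protocol, while the sample labels write the dose in mM. Each genotype is a single cell line, so an effect of the loss of Cfp1 and any other difference between the lines cannot be told apart. The replicates are called biological in the labels without saying what separated them. The p-values below rest on the spread between these replicates, estimated over the 4 groups together and moderated across genes. The main fit treats the replicates as independent.

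Germline genes are transcribed in gametes and their precursors and are kept off in most somatic cells, many of them by methylation of a CpG-rich promoter and by repressor complexes that contain E2F6, MGA and MAX. Mouse ES cells transcribe part of this programme at low levels without entering meiosis. Cfp1, encoded by Cxxc1, binds unmethylated CpGs and brings the Set1 methyltransferase of histone H3 lysine 4 to promoters that contain them.

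Levels are given as counts per 1000000 (CPM), with library sizes scaled by the trimmed mean of M-values (TMM). A member is called higher or lower when edgeR's quasi-likelihood test, fitted to all 15762 genes with sufficient counts, gave a Benjamini-Hochberg adjusted p under 0.05, and all 40 measured members entered that fit. Fold changes are on the log2 scale with their standard error (SE). The SE was derived from the test, as the absolute log2 fold change divided by the square root of the F statistic. The counts used per replicate ranged from 11772320 to 29422711. Each replicate had been sequenced in 2 technical runs, which were summed except for doxorubicin-treated Cfp1-/- replicate 1. In its second run 439 genes with at least 200 counts in the first run were at 0, all on chromosomes 19, X and Y and with Taf7l and Tex11 among them, so that run was left out. Tdrd1, with 139 counts in the first run, was also at 0 in the second. The second run of doxorubicin-treated WT replicate 1 also departed from its first beyond sampling noise, and it was kept (chi-square divided by its degrees of freedom 9.61, against 0.998 to 1.05 in the 6 other replicates). Cxxc1 had 1412, 1117, 616 and 829 counts in the WT replicates and 4, 3, 3 and 1 in the Cfp1-/- replicates.

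Per kilobase of exon, the members spanned a wide range of levels. In untreated WT cells their median was 2.84 CPM per kb against 4.30 over all genes tested, and in untreated Cfp1-/- cells it was 7.16 against 4.48. With doxorubicin the medians were 3.77 against 5.00 in WT cells and 7.57 against 5.16 in Cfp1-/- cells. The members' median thus lay below that of all genes tested in WT cells and above it in Cfp1-/- cells, with and without the drug. Sycp3 had the highest level per kb of the members in untreated WT cells, at 106 CPM per kb, followed by Stag3 at 32.1 and Rpl10l at 31.5. In untreated Cfp1-/- cells Syce1 came first at 57.3 CPM per kb, followed by Rpl10l at 32.2 and Dazl at 22.3. Spo11 was the lowest of the members in 3 of the 4 groups, from 0.0175 CPM per kb in untreated WT to 0.137 in treated Cfp1-/- cells, and in treated WT cells Asz1 was lower still, at 0.0493 against 0.0792 for Spo11. Rpl10l is a retrogene copy of the ribosomal protein gene Rpl10, and its counts are uncertain where reads could match both. At least 1 CPM was reached by 34 members in untreated WT cells, 37 in treated WT cells, 37 in untreated Cfp1-/- cells and 39 in treated Cfp1-/- cells. In bulk RNA a gene used by fewer cells and a gene used at a lower level per cell cannot be told apart.

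**Figure D1:**
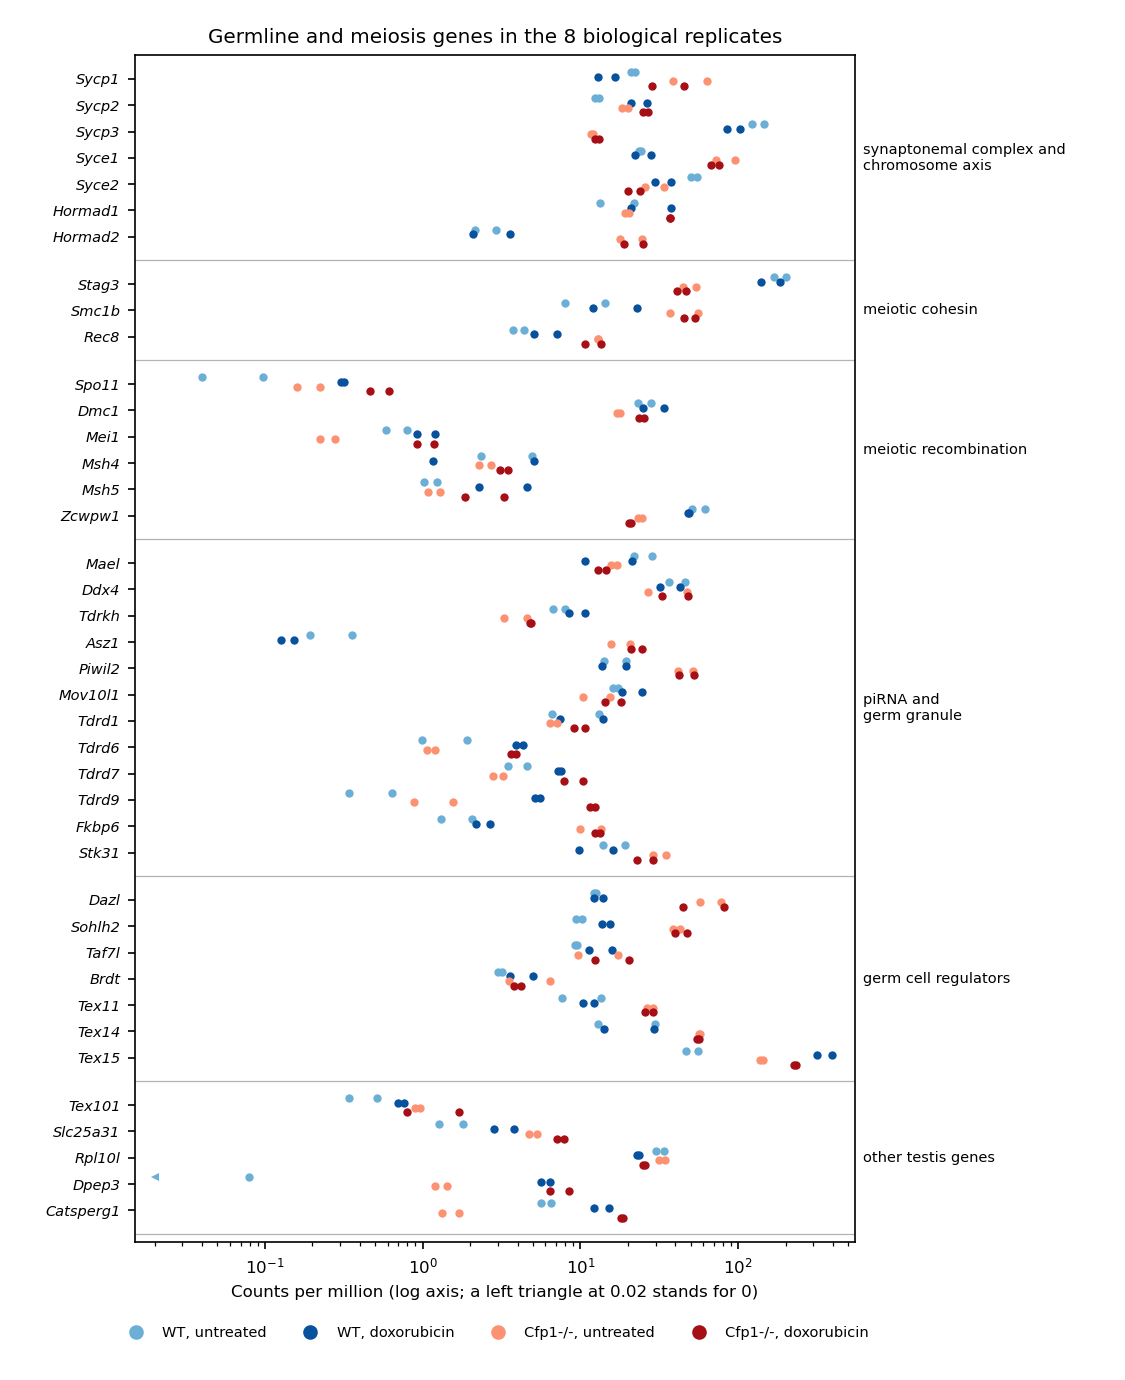
CPM on a log axis for the 40 measured germline and meiosis genes, grouped by role. Each point is 1 biological replicate, coloured by group, and a left triangle stands for 0. Asz1 and Hormad2 separate by line, with both Cfp1-/- groups to the right, Sycp3 and Stag3 separate in the opposite direction, and Tdrd9 separates by treatment.

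Promoters from RefSeq (assembly GRCm38.p6, 250 bases before to 50 after the start of the gene) were found for 35 of the 40 measured members. Spo11, Piwil2, Tdrd6, Tex11 and Tex15 had no entry. Only the first entry of each gene was used, so other starts were not examined. Whether that start is the one used in these cells was not tested. The members' promoters held a median of 19 CpGs in 300 bases, from 4 in Tdrd7 to 38 in Ddx4, against a median of 7 over 27025 promoters and of 20 over the 10855 promoters of genes tested here. The sequence CACGTG, the E-box that MAX-containing dimers bind, was present in 14 of the 35 (40%), against 7.24% of all promoters and 9.88% of those of genes tested. TCCCGC, in either orientation the core of the E2F site, was present in 14 of the 35 (40%), against 20% of all promoters and 34.6% of those of genes tested. Both motifs were searched on both strands, and CACGTG reads the same on each. A match is a description of the letters and not a binding site. The 250 bases before the start are given for the member with the largest rise in Cfp1-/- cells (Asz1), a germ cell regulator that rose with it (Dazl), the member with the largest fall (Sycp3) and a member that rose with doxorubicin in both lines (Tdrd9), with CpGs in capitals. The stretches are chr6:18109062-18109311 on the minus strand, chr17:50293621-50293870 on the minus strand, chr10:88459337-88459586 on the plus strand and chr12:111971309-111971558 on the plus strand, and hold 15, 20, 12 and 8 CpGs.
Asz1: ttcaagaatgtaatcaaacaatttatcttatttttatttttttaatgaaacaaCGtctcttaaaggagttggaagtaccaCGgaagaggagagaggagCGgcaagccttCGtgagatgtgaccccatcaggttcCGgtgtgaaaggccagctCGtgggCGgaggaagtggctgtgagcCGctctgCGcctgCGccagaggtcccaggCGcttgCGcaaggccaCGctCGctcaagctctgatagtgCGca
Dazl: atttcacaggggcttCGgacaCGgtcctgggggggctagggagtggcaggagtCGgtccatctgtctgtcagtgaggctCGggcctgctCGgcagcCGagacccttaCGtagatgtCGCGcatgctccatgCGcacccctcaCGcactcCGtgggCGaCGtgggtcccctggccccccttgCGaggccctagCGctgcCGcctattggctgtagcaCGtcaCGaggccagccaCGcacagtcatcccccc
Sycp3: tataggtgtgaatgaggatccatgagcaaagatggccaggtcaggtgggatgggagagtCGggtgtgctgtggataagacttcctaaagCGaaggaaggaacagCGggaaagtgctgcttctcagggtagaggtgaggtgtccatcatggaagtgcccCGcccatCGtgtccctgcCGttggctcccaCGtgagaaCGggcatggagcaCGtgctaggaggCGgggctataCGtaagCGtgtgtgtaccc
Tdrd9: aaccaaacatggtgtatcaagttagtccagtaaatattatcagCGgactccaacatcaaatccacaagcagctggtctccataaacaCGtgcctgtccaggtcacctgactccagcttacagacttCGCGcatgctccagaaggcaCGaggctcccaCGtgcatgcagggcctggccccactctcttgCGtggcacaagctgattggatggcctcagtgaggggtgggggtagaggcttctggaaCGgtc

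Sycp3 held CACGTG at -64 and -43 and Tdrd9 held it at -165 and -95, counted from the gene's start to the first base of the match. Sycp3 also held TCCCGC at -147, on the opposite strand, and neither Asz1 nor Dazl held either motif. The 15 members with a promoter that were called higher in untreated Cfp1-/- cells had a median of 18 CpGs, the 8 called lower had 17.5 and the 12 not called had 20. CACGTG was present in 5 of the 15, 2 of the 8 and 7 of the 12.

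The first comparison asks how the 2 lines differ without treatment. In untreated Cfp1-/- cells 18 of the 40 members were higher than in untreated WT cells and 8 were lower, while 18.7% of all genes tested were called higher and 17.2% lower. The largest rises were those of Asz1, Dpep3, Hormad2, Fkbp6 and Dazl, and the largest falls those of Sycp3, Catsperg1 and Stag3. The members' median difference was 0.64, against 0.01 for all genes tested, and 25 of the 40 differences were positive. The replicates of the lines did not overlap for 33 members, of which 7 were not called. The same count was not made over all genes tested, so it is no result about the members.

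Among the 7 members of the synaptonemal complex and chromosome axis, the structure that holds paired meiotic chromosomes together, 4 were higher in untreated Cfp1-/- cells and 2 were lower. Hormad2, which encodes an axis protein, had 2.90 and 2.14 CPM in the untreated WT replicates and 24.7 and 17.7 in the untreated Cfp1-/- replicates. Its difference was 3.06 (SE 0.317, edgeR adjusted p = 0.00022). Syce1, a central element gene, had 23.5 and 24.3 CPM in WT and 72.4 and 95.2 in Cfp1-/- cells, a difference of 1.81 (SE 0.176, edgeR adjusted p = 0.000169). Both genes thus stood several fold above WT in each Cfp1-/- replicate. Sycp1, which encodes the transverse filament, went from 22.3 and 20.9 CPM in WT to 63.6 and 38.6 in Cfp1-/- cells (difference 1.24, SE 0.277, edgeR adjusted p = 0.00779). Sycp2 of the lateral element had the smallest rise of the 4, from 12.3 and 13.1 CPM to 18.4 and 19.9 (difference 0.59, SE 0.175, edgeR adjusted p = 0.0261). Sycp3, the partner of Sycp2 in the lateral element, moved in the opposite direction. It had 146 and 122 CPM in untreated WT cells, and 11.7 and 11.96 in untreated Cfp1-/- cells, a difference of -3.50 (SE 0.160, edgeR adjusted p = 3.06e-06). Syce2, a second central element gene, had 50.0 and 55.1 CPM in WT and 25.6 and 33.8 in Cfp1-/- cells (difference -0.82, SE 0.188, edgeR adjusted p = 0.00857). The genes of 1 structure therefore did not move together. Hormad1 was not called.

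All 3 meiotic cohesin subunits differed between the untreated lines. Smc1b had 14.4 and 8.02 CPM in WT and 55.8 and 36.9 in Cfp1-/- cells, a difference of 2.04 (SE 0.356, edgeR adjusted p = 0.00248). Rec8, the subunit cleaved at the meiotic divisions, rose from 4.40 and 3.74 to 12.9 and 12.9 CPM (difference 1.66, SE 0.247, edgeR adjusted p = 0.00119). Stag3, at 200 and 168 CPM the highest cohesin member in WT cells, was at 53.7 and 45.0 CPM in Cfp1-/- cells, a difference of -1.90 (SE 0.175, edgeR adjusted p = 0.000133). Summed over the 3 genes, levels of 180 to 219 CPM in the untreated WT replicates stood against 94.8 to 122 CPM in Cfp1-/- cells.

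Of the 6 members listed under recombination, 3 were lower in untreated Cfp1-/- cells and the other 3 were not called. Tex15, needed for repair of meiotic breaks and higher in these cells, was listed with the germ cell regulators. Zcwpw1, whose protein reads the histone marks set by PRDM9, had 61.9 and 51.1 CPM in WT and 23.2 and 24.5 in Cfp1-/- cells, a difference of -1.24 (SE 0.144, edgeR adjusted p = 0.000378). Dmc1, the meiotic strand-exchange recombinase, had 28.0 and 23.3 CPM against 17.1 and 17.7 (difference -0.56, SE 0.189, edgeR adjusted p = 0.0447). Mei1, needed for meiotic double-strand breaks, had 0.793 and 0.583 CPM against 0.222 and 0.280 (difference -1.44, SE 0.499, edgeR adjusted p = 0.0489). Both calls were close to the threshold, and with a replicate block edgeR no longer called Mei1 (adjusted p = 0.0512). Mei1 was also not called with total count scaling, by DESeq2's Wald test, without the filter on low counts or with all runs summed, and Dmc1 was not called with total count scaling or with all runs summed. Spo11, which makes the breaks, had 3 counts over both untreated WT replicates and 9 over the Cfp1-/- replicates, a ratio of 2.89 with a 95% counting interval of 0.721 to 16.6. This difference was not detectable at the depth reached. Msh4 and Msh5, which stabilise recombination intermediates, were not called.

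Among the 12 measured members of the piRNA pathway and germ granules, which silence transposons in germ cells, 5 were higher in untreated Cfp1-/- cells and 1 was lower. Asz1, a germ granule component at the mitochondrial surface, had the largest difference of all members. It had 0.357 and 0.194 CPM in untreated WT cells (9 and 4 counts) and 20.5 and 15.6 CPM in Cfp1-/- cells (463 and 389 counts), a difference of 5.97 (SE 0.332, edgeR adjusted p = 8.73e-06). It lies on the minus strand of chromosome 6, from 18000964 to 18059061 in the build of the files (NCBIM37). Fkbp6, a co-chaperone in piRNA biogenesis, had 2.06 and 1.31 CPM in WT and 13.4 and 9.88 in Cfp1-/- cells (difference 2.77, SE 0.298, edgeR adjusted p = 0.000274). Piwil2, which encodes the Piwi protein Mili, had 19.4 and 14.1 CPM against 51.8 and 41.8 (difference 1.48, SE 0.229, edgeR adjusted p = 0.00144). In each of the 3 the replicates of the lines did not overlap. Tdrd9, a tudor-domain helicase, went from 0.635 and 0.340 to 1.55 and 0.880 CPM (difference 1.27, SE 0.416, edgeR adjusted p = 0.0386). Stk31 went from 19.12 and 13.8 to 34.8 and 29.0 CPM (difference 0.95, SE 0.258, edgeR adjusted p = 0.0184). The member that fell was Tdrkh, a mitochondrial partner of Piwi proteins, from 6.74 and 7.97 to 4.57 and 3.28 CPM (difference -0.91, SE 0.261, edgeR adjusted p = 0.0237), and it was not called with total count scaling. Ddx4, the mouse vasa helicase and a standard germ cell marker, was not called and its replicates overlapped, with 36.3 and 45.7 CPM in WT and 47.0 and 26.9 in Cfp1-/- cells. Mael had 21.9 and 28.6 CPM in WT and 16.95 and 15.6 in Cfp1-/- cells (difference -0.63, SE 0.285, edgeR adjusted p = 0.112). With a replicate block in the edgeR fit the Mael difference was -0.61 and just passed (adjusted p = 0.04996).

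Of the 7 members listed under germ cell regulators, 5 were higher in untreated Cfp1-/- cells and the other 2 were not called. The heading is loose, since it also holds Tex11, Tex14 and Tex15, so its count is not one of regulators alone. Dazl, an RNA-binding regulator of translation required for germ cell development, had 12.1 and 12.5 CPM in WT and 77.6 and 57.1 in Cfp1-/- cells, a difference of 2.45 (SE 0.276, edgeR adjusted p = 0.000337). Sohlh2, a basic helix-loop-helix factor of early germ cells, had 9.32 and 10.2 CPM against 42.9 and 38.6 (difference 2.06, SE 0.168, edgeR adjusted p = 7.91e-05). Tex15, needed for repair of meiotic breaks, had 47.0 and 55.3 CPM against 143 and 138 (difference 1.46, SE 0.140, edgeR adjusted p = 0.000159). All 3 were higher in every Cfp1-/- replicate than in any WT replicate. Tex14 of the intercellular bridge had 29.5 and 13.0 CPM in WT and 57.2 and 56.8 in Cfp1-/- cells (difference 1.42, SE 0.381, edgeR adjusted p = 0.0176). X-linked Tex11 had 13.4 and 7.68 CPM against 28.7 and 26.3 (difference 1.38, SE 0.249, edgeR adjusted p = 0.00299). Taf7l, a germ cell homologue of a TFIID subunit, had 9.24 and 9.52 CPM against 17.4 and 9.64 and was not called, nor was Brdt.

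Of the 5 other testis genes, 2 were higher and 1 was lower. Dpep3, which encodes a testis dipeptidase, had 2 and 0 counts in the untreated WT replicates and 32 and 30 in the Cfp1-/- replicates, or 1.42 and 1.20 CPM. The summed counts gave a ratio of 29.9 with a 95% counting interval of 7.92 to 252, and edgeR called it higher (adjusted p = 0.000775). Slc25a31, the ADP/ATP carrier of male germ cells, had 1.27 and 1.80 CPM against 5.28 and 4.72 (difference 1.71, SE 0.30, edgeR adjusted p = 0.00256). Catsperg1, a subunit gene of the sperm calcium channel CatSper, went the other way, from 5.59 and 6.51 CPM in WT to 1.69 and 1.32 in Cfp1-/- cells (difference -2.01, SE 0.246, edgeR adjusted p = 0.000487). Catsperg1 has a close paralogue, Catsperg2, and its counts are uncertain where reads could match both. Tex101 and Rpl10l were not called.

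When 1 of the 8 replicates was left out, the calls of Asz1, Dpep3, Hormad2, Fkbp6, Dazl, Sohlh2, Sycp3, Stag3 and Catsperg1 were among those that held in all 8 fits. Each such fit leaves 1 replicate in a group, which weakens the test for every gene. How many calls held over all genes tested was not computed, so the losses below are no result about the members. Sycp1 (0.86) and Syce2 (-0.61) were lost without untreated Cfp1-/- replicate 1. Stk31 (0.74 and 0.84), Tdrd9 (0.92 and 0.84) and Tex14 (0.95 and 1.44) were lost without untreated WT replicate 2 or untreated Cfp1-/- replicate 1, and Tdrkh (-0.79 and -0.68) without WT replicate 2 or Cfp1-/- replicate 2. Tdrd9 was also lost without either treated Cfp1-/- replicate (1.28 each), and Tex14 also without untreated Cfp1-/- replicate 2 (1.42), while without untreated WT replicate 1 Tex14 rose to 2.14. Sycp2 was lost when any 1 of the 4 untreated replicates was left out (0.54 to 0.67), Dmc1 with any 1 of these or of the treated Cfp1-/- replicates left out (-0.69 to -0.41), and Mei1 in all 8 fits (-1.63 to -1.18).

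With doxorubicin, 15 members were higher in Cfp1-/- than in WT cells and 6 were lower, against 16% and 12.1% of all genes tested. The members' median difference was 0.31, against 0.02 for all genes tested. All 15 members higher with the drug were among the 18 higher without it, and 5 of the 6 lower ones were among the 8 lower without it. How often this held over all genes tested was not computed. Asz1 had 0.126 and 0.153 CPM in treated WT cells and 24.4 and 20.9 in treated Cfp1-/- cells, and its summed counts of 763 and 5 gave a ratio of 158 (95% counting interval 67.5 to 488, edgeR adjusted p = 1.02e-05). Hormad2 had 3.60 and 2.09 CPM in WT against 24.97 and 19.02 (difference 2.96, SE 0.321, edgeR adjusted p = 0.000483), and Dazl had 13.9 and 12.2 against 81.6 and 44.8 (difference 2.27, SE 0.277, edgeR adjusted p = 0.000774). Sycp3 had 84.8 and 103 CPM against 12.4 and 13.1 (difference -2.87, SE 0.158, edgeR adjusted p = 1.2e-05). These 4 genes kept their order between the lines in every treated replicate. Stag3 had 185 and 139 CPM against 46.6 and 40.9 and Zcwpw1 had 48.2 and 48.5 against 20.4 and 20.8, with differences of -1.89 and -1.23. The remaining calls repeated with differences from 1.00 in Rec8 to 2.41 in Fkbp6 among those higher, and of -0.62 in Syce2 and -0.99 in Tdrkh among those lower, of which Syce2 was not called with total count scaling. Tex15 was the exception, since it was higher in Cfp1-/- cells without the drug and lower with it (difference -0.62, SE 0.136, edgeR adjusted p = 0.00975). Dpep3, Sycp2, Catsperg1, Dmc1 and Mei1 were called without the drug and not with it.

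**Figure D2:**
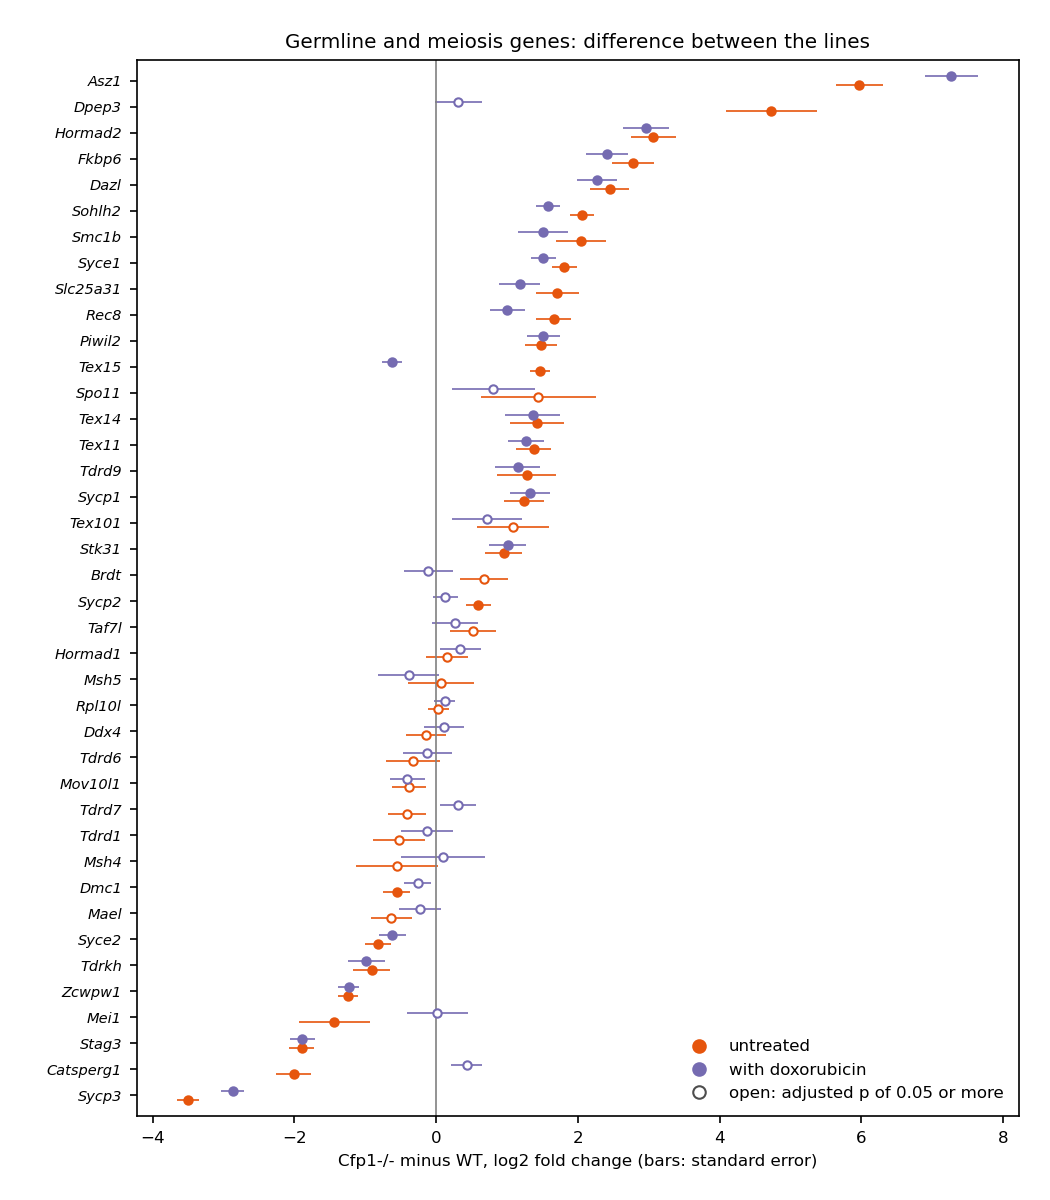
Log2 fold change of Cfp1-/- against WT for each member, with its standard error, in untreated cells (orange) and with doxorubicin (purple). Filled points are called. Asz1 lies at 5.97 and 7.27 and Sycp3 at -3.50 and -2.87, and Tex15 is on opposite sides of 0.

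Leaving out 1 replicate kept the calls of Asz1, Hormad2, Fkbp6, Dazl, Sycp3, Stag3 and Zcwpw1, among others, in all 8 fits. Here too each fit leaves 1 replicate in a group, which weakens the test for every gene. How many calls held over all genes tested was not computed. Without treated Cfp1-/- replicate 1 the calls of Sycp1 (0.94), Smc1b (1.38), Slc25a31 (1.23), Stk31 (0.83), Tdrd9 (1.19), Tex14 (1.37), Syce2 (-0.76), Tdrkh (-1.003) and Tex15 (-0.61) were lost. Without treated Cfp1-/- replicate 2 those of Rec8 (0.82), Smc1b (1.63), Slc25a31 (1.11), Stk31 (1.17), Tdrd9 (1.10), Tex14 (1.34), Syce2 (-0.50), Tdrkh (-0.98) and Tex15 (-0.65) were lost. Without treated WT replicate 2 Rec8 (0.78), Smc1b (1.11), Stk31 (0.69), Tdrd9 (1.20), Tex14 (0.91), Syce2 (-0.44), Tdrkh (-0.82) and Tex15 (-0.47) were lost, and without treated WT replicate 1 Slc25a31 (0.99) and Tdrd9 (1.10) were lost, while Tex14 rose to 1.98.

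Whole chromosomes also differed between the lines. The median difference of all genes tested in untreated cells was 0.53 on chromosome 7, 0.51 on chromosome 11, 0.29 on chromosome 19 and -0.23 on chromosome 8, and between -0.17 and 0.04 on the other chromosomes that carry members. Chromosome 7 carries Syce1, Tex101 and Catsperg1, chromosome 11 carries Hormad2 and Tex14, and chromosome 8 carries Dpep3, Syce2 and Tex15. Relative to its chromosome's median the difference of Hormad2 was 2.55, of Syce1 1.28, of Tex14 0.91, of Catsperg1 -2.54 and of Syce2 -0.59. All 18 members called higher lay above the median of their chromosome and all 8 called lower lay below it, and the same held for the 15 and the 6 with doxorubicin. This could not have come out otherwise, since every called difference was larger in size than any of these chromosome medians. It therefore says nothing about the chromosome-wide shifts. The part of the chromosome-wide shifts in these differences was not tested.

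**Figure D3:**
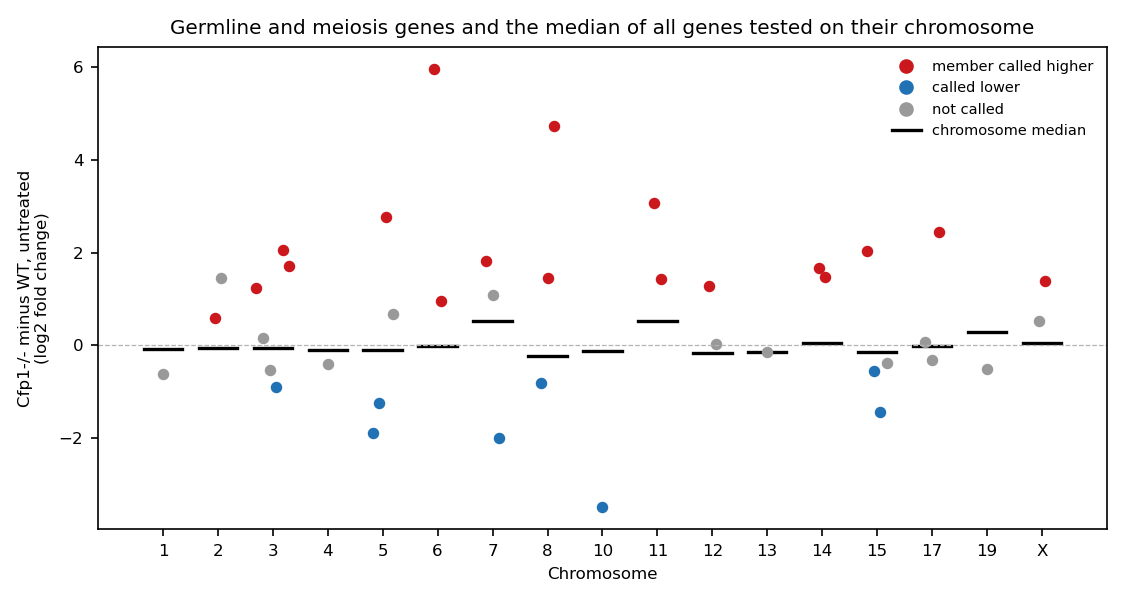
Log2 fold change of untreated Cfp1-/- against untreated WT cells for each member by chromosome (red, called higher; blue, called lower; grey, not called), beside the median of all genes tested on that chromosome (black bars). The medians of chromosomes 7 and 11 stand at 0.53 and 0.51, with Catsperg1 below the first and Hormad2 and Tex14 above the second.

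The second comparison asks how the members responded to doxorubicin in WT cells. In these cells 11 members rose and 3 fell, while 27% of all genes tested were called higher and 22.8% lower, so the share that rose was near the background. The members' median response was 0.36, against 0.06 for all genes tested. Dpep3 rose from 2 and 0 counts to 101 and 111, or 6.37 and 5.65 CPM, a ratio of the summed counts of 137 with a 95% counting interval of 37.4 to 1136 (edgeR adjusted p = 2.01e-05). Tdrd9 rose from 0.635 and 0.340 CPM to 5.18 and 5.55 (log2 fold change 3.42, SE 0.391, edgeR adjusted p = 0.000109). Tex15 rose from 47.0 and 55.3 CPM to 316 and 391 (log2 fold change 2.79, SE 0.146, edgeR adjusted p = 2.76e-06), and in treated WT cells it had the highest CPM of the members. Dpep3 and Tdrd9 were below 1 CPM in both untreated WT replicates, and Tex15 was not. Msh5 rose from 1.23 and 1.02 CPM to 4.61 and 2.29 (log2 fold change 1.596, SE 0.447, edgeR adjusted p = 0.0147), and Tdrd6 from 0.992 and 1.90 to 4.29 and 3.92 (log2 fold change 1.52, SE 0.361, edgeR adjusted p = 0.00668). Spo11 went from 3 counts over both untreated replicates to 11 over both treated ones, a ratio of 4.73 with a 95% counting interval of 1.25 to 26.4 (edgeR adjusted p = 0.0458), and with a replicate block it was not called (adjusted p = 0.0631), nor by DESeq2's Wald test, without the filter on low counts or without the second runs of both treated replicates 1. Catsperg1 (1.17), Slc25a31 (1.12), Sycp2 (0.90), Tdrd7 (0.88) and Sohlh2 (0.58) made up the rest of the 11.

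The 3 members that fell in treated WT cells did so by less than 1 on the log2 scale, and with counts scaled by library totals alone none of the 3 was called. Sycp3 fell from 146 and 122 to 84.8 and 103 CPM (log2 fold change -0.52, SE 0.143, edgeR adjusted p = 0.0141), Syce2 by 0.65 and Rpl10l by 0.47 on the log2 scale. In the second run of treated WT replicate 1, which departed from its first, Sycp3 had 326 counts against 1017 in the first, a share below that of the whole library. Without the second runs of both treated replicates 1 the Sycp3 change was -0.40 and passed (edgeR adjusted p = 0.0263). Mael had 10.7 and 21.2 CPM in treated WT cells (log2 fold change -0.66, SE 0.287, edgeR adjusted p = 0.0843) and passed with a replicate block (adjusted p = 0.0279). Hormad1 had 37.7 and 21.0 CPM (log2 fold change 0.73, SE 0.292, edgeR adjusted p = 0.064) and also passed with the block (adjusted p = 0.0101). Dazl, at 13.9 and 12.2 CPM, overlapped its untreated values. The calls of Dpep3, Tdrd9, Tex15, Tdrd6, Catsperg1 and Sycp2 held in all 8 fits that left out 1 replicate. Without untreated WT replicate 1 the calls of Slc25a31 (0.88), Sohlh2 (0.52), Tdrd7 (0.69), Sycp3 (-0.38) and Rpl10l (-0.38) were lost, without untreated WT replicate 2 those of Msh5 (1.46) and Syce2 (-0.59), without treated WT replicate 1 those of Msh5 (1.01), Sycp3 (-0.39), Syce2 (-0.49) and Rpl10l (-0.45), and without treated WT replicate 2 those of Slc25a31 (0.89), Sohlh2 (0.49), Tdrd7 (0.83) and Rpl10l (-0.49). Spo11 was lost in each of the 8 (1.61 to 2.78).

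In Cfp1-/- cells 8 members rose with doxorubicin and none was called lower, against 27.7% and 21.4% of all genes tested. For the members that went down, edgeR gave an unadjusted p under 0.05 to 2 (Rpl10l and Syce2), both of which were called with a replicate block, and DESeq2's Wald test called 1 lower. The members' median response was 0.21, against 0.01 for all genes tested. Catsperg1 rose from 1.69 and 1.32 CPM to 18.1 and 18.6 (log2 fold change 3.61, SE 0.25, edgeR adjusted p = 1.1e-05). Tdrd9 rose from 1.55 and 0.880 to 11.5 and 12.3 CPM (log2 fold change 3.30, SE 0.353, edgeR adjusted p = 8.46e-05). Dpep3 rose from 1.42 and 1.20 to 6.38 and 8.47 CPM (log2 fold change 2.51, SE 0.364, edgeR adjusted p = 0.000471). In all 3 genes the treated replicates stood several fold above the untreated ones. Mei1 rose from 0.222 and 0.280 to 0.922 and 1.18 CPM (log2 fold change 2.05, SE 0.493, edgeR adjusted p = 0.00725). The tudor-domain genes Tdrd6 (1.07 and 1.20 to 3.61 and 3.91 CPM) and Tdrd7 (2.80 and 3.24 to 7.91 and 10.3 CPM) rose by 1.73 and 1.596 on the log2 scale. Hormad1 (0.91) and Tex15 (0.71) completed the 8. Msh5 had 1.84 and 3.30 CPM in treated cells (log2 fold change 1.14, SE 0.448, edgeR adjusted p = 0.0594) and was called with the replicate block (adjusted p = 0.0321). Sycp3 stayed low, at 12.4 and 13.1 CPM (log2 fold change 0.11, SE 0.156, edgeR adjusted p = 0.58). Of the members that rose, 6 did so in both lines (Catsperg1, Dpep3, Tdrd6, Tdrd7, Tdrd9 and Tex15), which is 6 of 11 in WT and 6 of 8 in Cfp1-/- cells. The matching share over all genes tested was not computed, so this overlap is no result about the members. In fits that left out 1 replicate, Hormad1 was lost when any 1 of the 4 Cfp1-/- replicates was left out (0.86 to 0.94), and Mei1 without untreated replicate 1 (1.88) or treated replicate 2 (1.85).

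**Figure D4:**
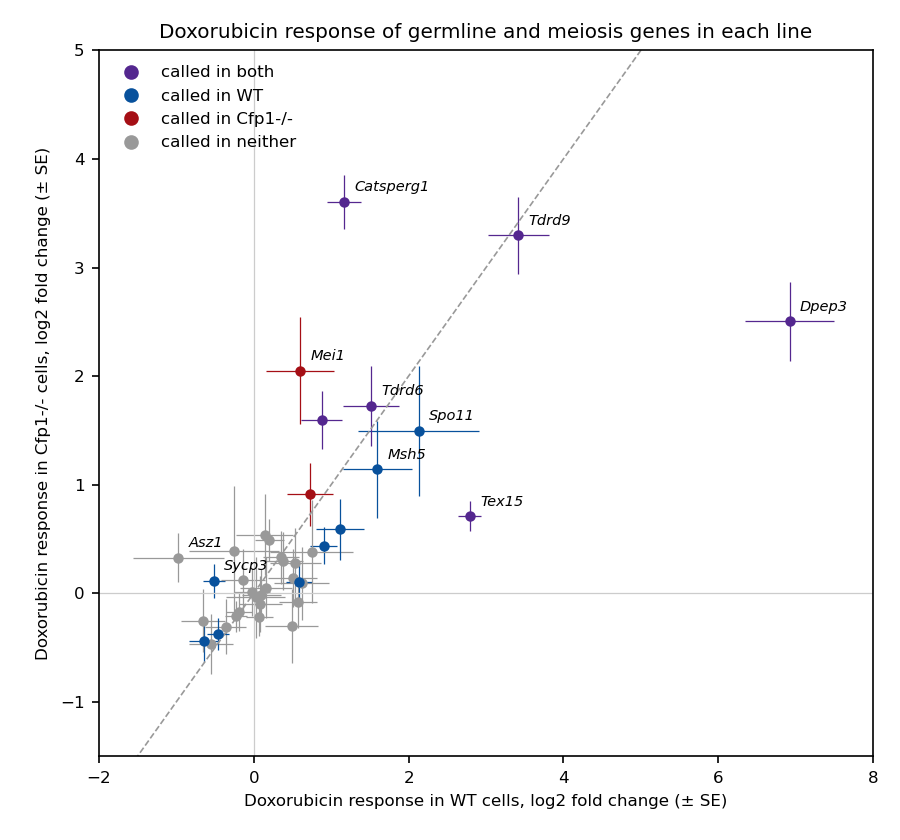
Log2 fold change with doxorubicin in WT cells (horizontal) and Cfp1-/- cells (vertical) for each member, with standard errors and coloured by the lines in which it was called. The dashed line marks equal responses. Tdrd9 lies near that line at 3.42 and 3.30, Catsperg1 above it at 1.17 and 3.61, and Tex15 and Dpep3 below it.

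The third comparison asks whether the response differed between the lines, tested as an interaction. Of all genes tested 0.0952% had a larger and 0.152% a smaller log2 response in Cfp1-/- cells, and 1 member was called in each direction. Catsperg1 had 5.59 and 6.51 CPM rising to 15.1 and 12.2 in WT, and 1.69 and 1.32 rising to 18.1 and 18.6 in Cfp1-/- cells, so that its response was larger in Cfp1-/- cells by 2.44 (SE 0.327, edgeR adjusted p = 0.0315). The treated levels differed by 0.43 between the lines (SE 0.215, edgeR adjusted p = 0.164), while the untreated levels differed by -2.01. Tex15 rose to 316 and 391 CPM in WT and, from a higher untreated level, to 226 and 234 in Cfp1-/- cells, a difference in response of -2.08 (SE 0.195, edgeR adjusted p = 0.0112). For Dpep3 the difference in response was -4.42 (SE 0.756, edgeR adjusted p = 0.0625), a fitted value that rests on 2 counts in untreated WT cells and is no bound. With a replicate block in the edgeR fit it was -4.41 and passed (adjusted p = 0.0136). Its treated levels, 6.37 and 5.65 CPM in WT and 6.38 and 8.47 in Cfp1-/- cells, differed by 0.31 (SE 0.332, edgeR adjusted p = 0.51). The calls of Catsperg1 and Tex15 were each lost in some fits that left out 1 replicate. Their fitted differences moved little over all 8 fits, from 2.26 to 2.60 and from -2.24 to -1.92. Such a fit leaves 1 replicate in a group, which weakens the test for every gene. Catsperg1 was lost without untreated WT replicate 2 (2.29), treated WT replicate 2 (2.28) or any 1 of the Cfp1-/- replicates (2.26 to 2.60), and Tex15 without untreated Cfp1-/- replicate 1 (-2.07) or treated Cfp1-/- replicate 1 (-2.07) or 2 (-2.10).

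**Figure D5:**
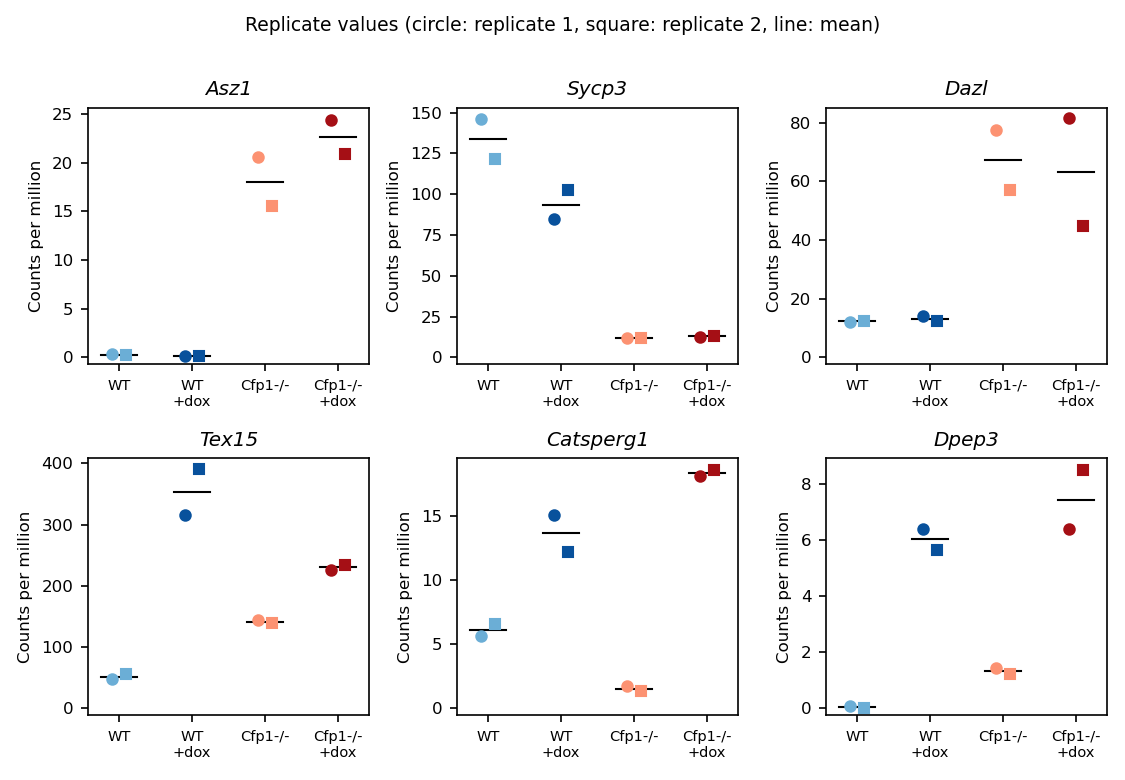
CPM on a linear axis in each replicate (circle, replicate 1; square, replicate 2) for 6 members, with the group mean as a line. Asz1, Dazl and Sycp3 differ by line with or without the drug, and Tex15 changes order between the lines with treatment. Catsperg1 is lower in untreated Cfp1-/- cells, and its difference between the treated lines was not called. Dpep3 starts near 0 in WT cells and ends between 5.65 and 8.47 in both treated groups.

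Other germline genes that are not members were counted from fixed lists. Between the untreated lines 18.7% of all genes tested were called higher in Cfp1-/- cells and 17.2% lower. Of 19 other meiosis genes tested, 4 (21.1%) were higher in untreated Cfp1-/- cells (Spata22, Rad51ap2, Hfm1 and Psmc3ip), a share near that background, and 6 (31.6%) were lower. Ccnb1ip1, a regulator of crossing over, had the largest of these differences, with 44.4 ± 2.30 CPM (SD, n = 2) in WT and 5.602 ± 0.174 in Cfp1-/- cells (-2.99 on the log2 scale). Of 12 other piRNA pathway genes tested, 5 (41.7%) were higher (Piwil1, Gpat2, Piwil4, Gtsf1 and Prmt5) and 1 (8.33%) was lower (Tdrd12). Piwil1, which encodes the Piwi protein Miwi, had 0.622 ± 0.151 CPM in WT and 2.82 ± 0.594 in Cfp1-/- cells, a difference of 2.18. With doxorubicin 5 of the 19 meiosis genes rose and 6 fell in WT cells, and 2 rose and 3 fell in Cfp1-/- cells, and for the 12 piRNA pathway genes these counts were 5 and 3, and 3 and 3. Over all genes tested 27% rose and 22.8% fell in WT cells, and 27.7% rose and 21.4% fell in Cfp1-/- cells. The meiosis list's shares in WT cells were 26.3% and 31.6%, and in Cfp1-/- cells 10.5% and 15.8%. Hspa2 and Rad51ap2 of the meiosis list and Piwil1, Piwil4 and Mybl1 of the piRNA list rose in both lines. The lists' median differences in untreated cells were -0.17 and 0.37, against 0.01 for all genes tested.

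Genes that encode repressors of the germline programme were lower, where they differed, in Cfp1-/- cells. Of 17 tested, 7 were lower in untreated Cfp1-/- cells and the other 10 were not called, against 17.2% lower over all genes tested. Ehmt2, a histone H3 lysine 9 methyltransferase, had 150 ± 10.5 CPM (SD, n = 2) in WT and 78.0 ± 7.77 in Cfp1-/- cells (-0.94), Uhrf1, which guides maintenance DNA methylation, had 353 ± 15.6 and 195 ± 1.91 (-0.86), Cbx3 had a difference of -0.64 and E2f6 had 48.0 ± 5.62 and 30.9 ± 2.72 (-0.63). With doxorubicin 14 of the 17 fell in each line, against 22.8% of all genes tested in WT and 21.4% in Cfp1-/- cells. The list's median difference between the untreated lines was -0.27. The part of these levels in the members' values was not tested.

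Markers of other cell types were read beside these results. The summed level of 8 ES cell markers was 3166 to 4279 CPM in untreated WT and 3437 to 3457 CPM in untreated Cfp1-/- replicates, and 1267 to 1689 and 1189 to 1458 CPM with doxorubicin. Between the untreated lines 2 of the 8 were higher in Cfp1-/- cells (Nanog and Utf1) and 3 were lower (Zfp42, Pou5f1 and Tdgf1). For this and the marker counts below, 18.7% of all genes tested were higher and 17.2% lower without the drug, and 16% were higher with it. Of 7 markers of post-meiotic male germ cells, Prm1, Prm2, Tnp1 and Acrv1 had at most 3 counts in every replicate, and the 7 together reached 0.126 to 1.18 CPM. Of 8 primordial germ cell markers tested, 3 were higher in untreated Cfp1-/- cells (Prdm14, Kit and Dppa3) and 1 was lower (Dppa4), and their sum was 293 to 346 CPM in WT against 439 to 478. Of 6 oocyte markers tested, Zp2 and Bmp15 were higher, with the 8 listed summing to 2.82 to 3.65 CPM in WT and 8.20 to 9.90 in Cfp1-/- cells. All 5 measured Zscan4 genes, which mark 2-cell-like ES cells, were higher in Cfp1-/- cells without and with the drug, and together had 0.952 to 1.36 CPM in untreated WT, 2.59 to 3.15 in treated WT, 11.6 to 12.1 in untreated Cfp1-/- and 19.4 to 20.9 in treated Cfp1-/- replicates. The Zscan4 genes are near-identical copies, so their single values are uncertain. In untreated Cfp1-/- cells 1 of 3 Sertoli cell markers tested was higher, and 3 of 6 fibroblast markers and 3 of 6 early lineage markers were lower. The part of these cell states in the members' differences was not tested.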

How the data were processed

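RNA-Seq of 16 samples was analysed, which are 8 biological replicates in 4 groups, each sequenced in 2 technical runs. Per the labels and the study's methods, the authors aligned paired-end reads to mm9 (NCBIM37) with STAR (2.2.1 in the submitters' processing notes) and counted those on Ensembl exons with HTSeq by strand and in union mode, and the deposited raw table holds these read counts per run. The deposited normalized table holds a signal per replicate, the summed counts divided by DESeq size factors by the authors. It served to check the run sums and for the mean-count limit in the call limits of the study. The members and lists were chosen with earlier results of these data known.

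Counts of the runs were summed per replicate, leaving out the truncated run. All 4 groups entered 1 fit of edgeR 4.0.16 in R 4.3.3 (filterByExpr, TMM, quasi-likelihood test, prior count 0.125), with Benjamini-Hochberg adjustment over 15762 genes; calls had an adjusted p under 0.05. No row lacked a gene. Full values are given for members called in a comparison of the lines or in the difference in response, for the 6 largest called responses in each line, and for Dazl, Sycp3, Ddx4, Mael and Taf7l. Ratios near 0 counts are given with exact 95% intervals, which cover counting error only. Per-kb levels use the summed exon length of the gene. Alternatives were DESeq2 1.42.0 (size factors, and its Wald test), total count scaling, no filter, the call limits of the study (a fold of 2.5 and a mean count of 200), all runs summed, the second runs of both treated replicates 1 left out, a replicate block, and leaving out each replicate. Same-numbered replicates deviated together in all 6 pairs of groups (correlation of deviations from group means 0.134 to 0.45, with chromosomes 19, X and Y left out), as a hint from the data, and values with the replicate block are given where they change a call.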

Additional observations from a re-analysis of the deposited data

Results flagged for a closer look

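The response to doxorubicin differed between the lines for 2 members, by an interaction term in edgeR's fit over all genes. The log2 response of Tex15 was smaller in Cfp1-/- cells by a difference of -2.08, with 2.79 in WT and 0.71 in Cfp1-/- cells. That of Catsperg1 was larger by 2.44, with 1.17 in WT and 3.61 in Cfp1-/- cells. In both genes the levels of the untreated lines also differed, in the direction opposite to the difference in response. Both calls were lost in some fits that left out 1 replicate, and the counts of Catsperg1 are uncertain where reads could match Catsperg2. For Dpep3 the difference in response was called only under some of the alternative settings.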

How the results depend on the processing

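With the call limits of the study, the members called higher and lower numbered 1 and 0 for the response in WT cells, 1 higher for the response in Cfp1-/- cells, 9 and 2 for the untreated lines and 8 and 2 for the treated lines. The share of all genes tested that passed these limits was not computed, so these counts are no result about the members. Total count scaling gave 0 lower in the WT response, 13 higher in the Cfp1-/- response and 5 lower between the untreated lines. Under it the log2 fold changes of all genes had medians of 0.37 and 0.22 in the responses of WT and Cfp1-/- cells and of 0.20 and 0.11 between the untreated and treated lines. The genes called higher and lower in these 4 comparisons then numbered 5865 and 1947, 5216 and 2128, 4040 and 1701, and 2951 and 1451, in place of 4248 and 3588, 4361 and 3373, 2946 and 2705, and 2518 and 1900. Members called lower in the Cfp1-/- response numbered 1 with DESeq2's size factors, its Wald test or all runs summed, and 2 with the replicate block. Those with a smaller response in Cfp1-/- cells numbered 2 with the Wald test, without the low-count filter and with the replicate block, where all genes called for the difference in response rose from 39 to 352, against 249 with the Wald test and 228 without the filter. The replicate block also ended the calls of Spo11 and Mei1 and added Hormad1, Mael and Smc1b (0.62) to the WT response, Dmc1 (0.49), Msh5, Rpl10l (-0.38), Syce2 (-0.43) and Sycp2 (0.44) to the Cfp1-/- response, and Mael between the untreated lines, and changed no other call. Leaving out 1 replicate gave 9 to 10 higher and 1 to 3 lower in WT cells, 6 to 11 and 0 to 1 in Cfp1-/- cells, 0 to 1 in each direction for the difference, 13 to 18 and 5 to 8 between untreated lines, and 9 to 15 and 3 to 6 between treated lines. Each of these fits leaves 1 replicate in a group, which weakens the test for every gene, so these counts are no result about the members. The fitted Dpep3 values rest on 2 counts in untreated WT cells. Without untreated WT replicate 1 they went from 6.92 to 9.89 (response) and from 4.73 to 7.71 (lines). Without untreated WT replicate 2 they went to 6.12 and 3.94. The response of Dazl in WT cells, 0.09 and not called, was -0.016 without treated WT replicate 1 and 0.17 without treated WT replicate 2. The cause of these shifts was not tested. Low counts limit the values of Spo11, of Asz1 in WT cells and of Dpep3 in untreated WT cells.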
